A study of Mus musculus with 24 samples.

Results

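Glycolysis splits glucose into pyruvate, and most of its steps can be run by more than 1 isozyme, each made from its own gene. Adult hepatocytes use a set suited to an organ that takes up glucose only when it is plentiful and can run the pathway backwards, among them the liver phosphofructokinase Pfkl, the bifunctional regulator Pfkfb1 and liver pyruvate kinase (Pklr). Fetal liver, leukocytes, mesenchymal cells, muscle and many tumors use other isozymes, which are less tied to blood glucose and to hormones of the fed and fasted state.

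The genes described here were the 10 named for that second set, Hk1, Hk2, Hk3, Pfkp, Pfkfb3, Pkm, Aldoa, Aldoc, Ldha and Ldhb. They are 10 of the 56205 genes counted, and the rule is this list of names and uses no measured value. Their levels were measured in poly(A) RNA-Seq of whole liver from C57BL/6J mice, 8 to 10 weeks old at the start, which were fed for 20 weeks either a diet rich in palm oil, with added fructose and cholesterol (the high-fat diet, 12 libraries), or its control diet (12 libraries). The mice carried no transgene or deletion, and the control diet was the only other condition. All 10 genes passed the filter on low counts, at least 1 count in at least 12 libraries, and they were tested in the same fit as 17913 genes in all.

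Levels are given as CPM, which is counts divided by the library total in units of 1e6, scaled by edgeR's TMM method. To be called higher or lower, a gene needed an adjusted p no larger than 0.01 together with a log2 fold change above 0.5 or below -0.5 (edgeR quasi-likelihood fit, Benjamini-Hochberg over the 17913 genes). In whole liver, fewer cells of a type and less RNA per cell cannot be told apart. Gene positions are those of GENCODE M21 on GRCm38.p6.

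Depth ran from 14468418 to 22112552 counts per library. The libraries fell into 2 sets that the labels do not name: replicates 1 to 6 of each diet held 2664 to 6285 Xist counts and no Ddx3y, and replicates 7 to 12 held 0 to 3 Xist counts and 448 to 1016 Ddx3y counts. The design text gives 6 mice per diet and sex, and the labels give no sex for a library, so the sets are called Xist-high and Xist-low below and each is given beside the pooled values. Hepatocyte markers, led by Alb and Apoa1, summed to 34040 to 86260 CPM in high-fat diet livers and 74950 to 123500 CPM in control livers, so the tissue label held in every library. Library 3 of the high-fat diet stood apart by its red cell markers (3143 CPM, next highest on that diet 430). Its neutrophil markers (166 CPM, next highest 14.4) did so too, as did the cholangiocyte markers of library 9 (158 CPM, next highest 36.1). Among the controls, libraries 6 and 11 had the highest sums of monocyte-derived macrophage markers, 24.1 and 20.4 CPM. Control library 10 had the lowest depth (14468418 counts), the lowest TMM factor (0.679) and the smallest mitochondrial share of counts (3.65%). Its red cell markers summed to 853 CPM, and it held the control maximum of Ldha, Aldoa, Ldhb and Pfkfb1.

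Per kilobase of exon, Ldha was by far the most abundant of the 10 genes on the control diet, with a mean of 271 CPM per kb. Aldoa (40.5 CPM per kb) and Pkm (4.93) followed, and the other 7 lay between 0.230 for Pfkp and 2.47 for Aldoc. On the same per-length scale the hepatocyte isozyme Pklr (157) was above Pkm, and Pfkl (6.39) was above Pfkp. Ldha was thus not a minor isozyme in these livers, whatever its listing here, while Ldhb stood at 1.61 CPM per kb.

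Many glycolytic genes carry the core of a hypoxia response element, the letters bound by hypoxia-inducible factors, near their start. The core was searched as ACGTG or GCGTG on both strands in the RefSeq windows from 250 bases before to 50 bases after each start (GRCm38.p6, the build that the processing notes call mm10). At least 1 window of each of the 10 genes held it, as did 46.7% of 27025 genes with a window. Among windows it was in 14 of the 17 of these genes (82.4%) against 43.8% of all 32851. Overlapping windows of Aldoa hold the same site (chr7:126799363-126799392), which is thus counted more than once. The background was not matched for base composition. Of the hepatocyte isozymes Pfkl, Pfkfb1 and Pklr, the former 2 had a window with the core. A match describes letters only, and no binding was measured. The stretches of 30 bases below show the match nearest to a start, upstream of it, for the 5 genes that were called. Ldha, which was not called, is shown for contrast. Some genes have more than 1 RefSeq start. For Hk1 and Pkm the window farthest upstream (chr10:62379859-62380158 and chr9:59656326-59656625) held 0 matches, and the stretch shown belongs to another start. Each stretch is written 5′ to 3′ on the gene's strand, and the match nearest to the start is in capitals. CACGT and CACGC are the core on the opposite strand. In Hk1 a CACGC match overlaps the match in capitals and is partly in lower case.
Hk1, chr10:62340422-62340451, minus strand: ttggcactgtgccaccacGCGTGaccgcgc
Hk2, chr6:82774489-82774518, minus strand: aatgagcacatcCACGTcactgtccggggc
Hk3, chr13:55021524-55021553, minus strand: actacattttgaCACGTtgcctagttcaac
Pfkp, chr13:6648777-6648806, minus strand: cgctcgggcgggGCGTGggcggctcctgcg
Pkm, chr9:59657140-59657169, plus strand: ctccgatccggtCACGTccgcgccgcagca
Ldha, chr7:46845758-46845787, plus strand: cgtgggttcccgCACGTccgctgggctccc

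Of the 10 genes, 5 were higher on the high-fat diet, the 3 hexokinases Hk1, Hk2 and Hk3, the platelet-type phosphofructokinase Pfkp and pyruvate kinase Pkm, where 13.2% of all tested genes were called higher. None of the 10 was called lower by edgeR, where 4.99% of tested genes were. DESeq2 and limma-voom also called none lower, and 1, Aldoc, was lower at an unadjusted p under 0.05. The median log2 fold change of the 10 genes was 0.79, against -0.03 over all tested genes. Pkm and Hk2 were the 2 whose high-fat diet libraries all lay above every control library, a pattern shown by 1.48% of tested genes, and 0 lay wholly below, as 0.402% of tested genes did.

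**Figure D1:**
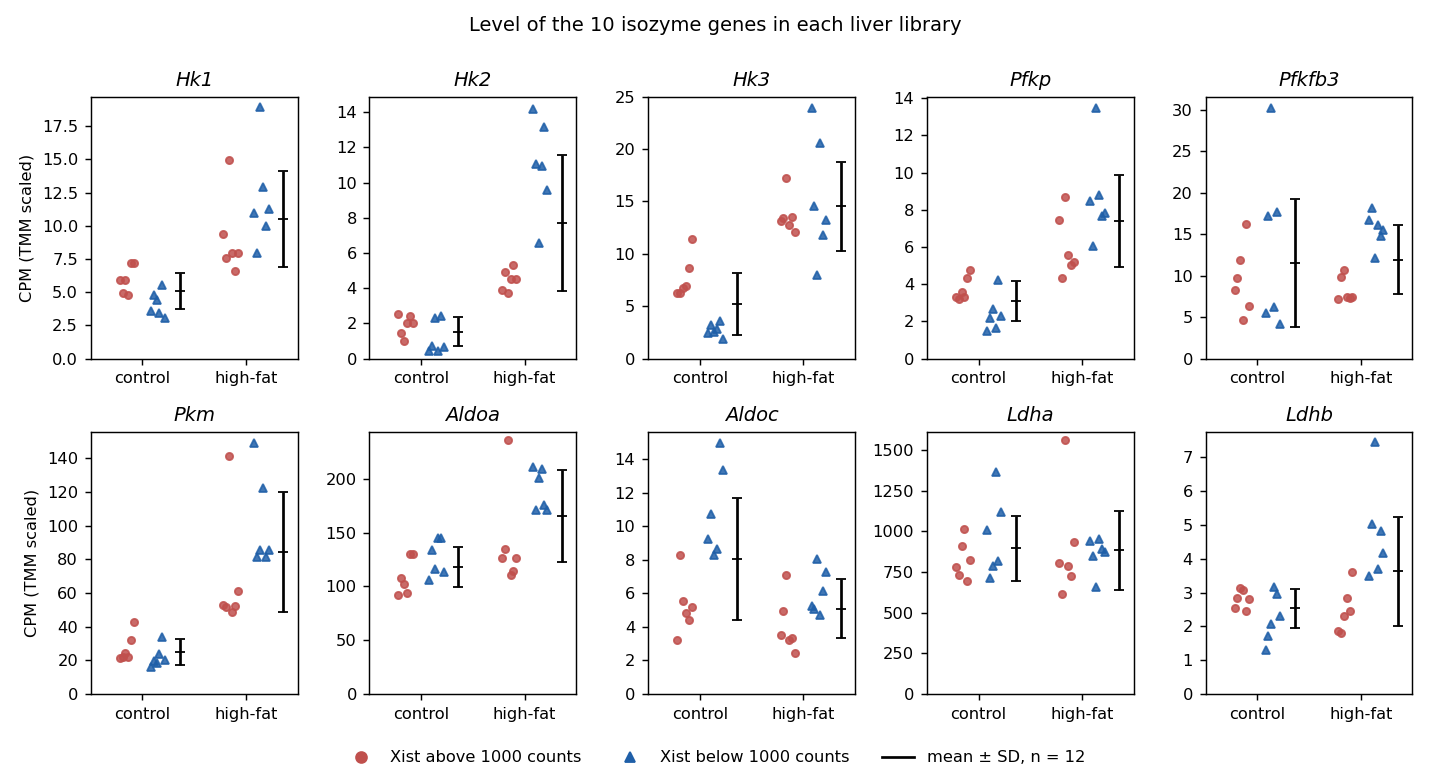
Level of each of the 10 genes in every library, in TMM-scaled CPM on a linear axis from 0, by diet. Circles are Xist-high and triangles Xist-low libraries, and bars give the mean ± SD of 12 libraries. Hk2 and Pkm show no overlap between the diets, and Ldha and Pfkfb3 overlap over most of their range.

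Hexokinases trap glucose in the cell as glucose 6-phosphate. Hexokinases 1, 2 and 3 work at low glucose and are inhibited by their product. Hk2, the inducible hexokinase of muscle, fat and many tumors (ENSMUSG00000000628, chr6:82725025-82774454), ran from 3.73 to 14.2 CPM in high-fat diet livers (median 5.93). In control livers it ran from 0.407 to 2.56 CPM (median 1.73) and rested on 4 to 52 counts per library. The groups did not overlap, and the difference was the largest of the 10 (4.94-fold, log2 fold change 2.31, SE 0.31, adjusted p = 4.7e-06).

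The high-fat diet libraries themselves separated by set for Hk2. The 6 Xist-low libraries held 6.55 to 14.2 CPM and the 6 Xist-high libraries 3.73 to 5.30 CPM, without overlap. On the control diet the order was not the same, with 0.407 to 2.44 CPM in the Xist-low and 1.01 to 2.56 CPM in the Xist-high libraries.

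Hk3, the hexokinase found mainly in white blood cells (ENSMUSG00000025877, chr13:55005985-55021385), ran from 7.95 to 23.9 CPM in high-fat diet livers (median 13.3) against 1.84 to 11.4 CPM in control livers (median 4.90). Of the 12 high-fat diet libraries, 11 lay above every control, and the exception was library 9 at 7.95 CPM. Hk3 was 2.75-fold higher (log2 fold change 1.46, SE 0.25, adjusted p = 5.4e-05). The control libraries split by set, 6.24 to 11.4 CPM where Xist was high and 1.84 to 3.57 CPM where it was low, and in both sets the diets did not overlap.

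Hk1, the hexokinase of brain and red cells (ENSMUSG00000037012, chr10:62268855-62379908), ran from 6.58 to 18.9 CPM in high-fat diet livers (median 9.67) against 3.03 to 7.20 CPM in control livers (median 4.88). Again 11 of 12 high-fat diet libraries lay above every control. The difference was 2.07-fold (log2 fold change 1.05, SE 0.17, adjusted p = 3.1e-05). Its 2 highest libraries were 9 (18.9 CPM) and 3 (14.9 CPM), those with the outlying cholangiocyte and blood cell markers, and without both Hk1 was still called (log2 fold change 0.87, adjusted p = 6.6e-05).

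Phosphofructokinase commits sugar to glycolysis, and Pfkp encodes its platelet-type subunit (ENSMUSG00000021196, chr13:6579768-6648777). It ran from 4.31 to 13.5 CPM in high-fat diet livers (median 7.55) against 1.46 to 4.75 CPM in control livers (median 3.26). Of the high-fat diet libraries 11 were above every control, and library 9 was the highest. Pfkp was 2.38-fold higher (log2 fold change 1.25, SE 0.19, adjusted p = 2.2e-05), and without libraries 3 and 9 the log2 fold change was 1.10 (adjusted p = 5.8e-05). Of its 13401 bases of annotated exon, 748 overlap exons of Pitrm1 on the opposite strand, whose total of 16245 counts exceeded the 2536 counts of Pfkp. The strand setting of the counting is not given in the sources used here. Pitrm1 itself was not called (log2 fold change 0.19, adjusted p = 0.152).

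Pfkfb3 makes fructose 2,6-bisphosphate, the strongest activator of phosphofructokinase, and is the isozyme of proliferating and inflammatory cells (ENSMUSG00000026773). Its levels overlapped widely, from 7.13 to 18.2 CPM in high-fat diet livers (median 11.4) against 4.21 to 30.3 CPM in control livers (median 8.96). It was not called (log2 fold change 0.05, SE 0.28, adjusted p = 0.902), and the control libraries spread more (11.5 ± 7.68 CPM, SD, n = 12) than the high-fat diet libraries (11.9 ± 4.18, SD, n = 12). On the high-fat diet all 6 Xist-low libraries (12.1 to 18.2 CPM) lay above all 6 Xist-high libraries (7.13 to 10.7 CPM).

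Aldolases split fructose 1,6-bisphosphate into triose phosphates. Aldoa, the isozyme of muscle, red cells and fetal liver (ENSMUSG00000030695), ran from 111 to 236 CPM in high-fat diet livers (median 171) against 92.3 to 145 CPM in control livers (median 115). The groups overlapped, with 7 of 12 high-fat diet libraries above every control. Its adjusted p of 0.0029 passed the threshold and its log2 fold change of 0.49 (SE 0.12, 1.40-fold) fell just short, so the call turned on small choices. It was called with DESeq2 (0.51) and with 6 of the other planned settings, and in the fit without the high-fat diet libraries 3 and 9 the log2 fold change was 0.39 (adjusted p = 0.0138).

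Aldoc, the brain isozyme (ENSMUSG00000017390), ran from 2.46 to 8.03 CPM in high-fat diet livers (median 5.01) against 3.24 to 15.01 CPM in control livers (median 8.28). It was not called (log2 fold change -0.66, SE 0.23, adjusted p = 0.0250). The control libraries split by set, with 8.29 to 15.01 CPM in the Xist-low and 3.24 to 8.27 CPM in the Xist-high set. With the set as a term in the fit Aldoc was called lower (log2 fold change -0.60, adjusted p = 0.0056), and among the Xist-low libraries the diets did not overlap.

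Pyruvate kinase makes the last ATP of the pathway. Pkm encodes the M1 and M2 forms, of which M2 is the isozyme of fetal, proliferating and immune cells, and counts per gene do not tell the forms apart (ENSMUSG00000032294, chr9:59656368-59679375). It ran from 48.6 to 149 CPM in high-fat diet livers (median 81.5) against 15.8 to 42.8 CPM in control livers (median 21.9). Every high-fat diet library was above every control, and Pkm was 3.42-fold higher (log2 fold change 1.77, SE 0.20, adjusted p = 7.0e-07). Within the Xist-high set of the high-fat diet, library 3 stood at 141 CPM and the other 5 between 48.6 and 61.2 CPM. Without libraries 3 and 9 the log2 fold change was 1.67 (adjusted p = 1.8e-06), and without the control libraries 6 and 11 it was 1.95 (adjusted p = 1.4e-07). On the same strand, 767 of 5001 exonic bases are shared with Gm49759, which held 570 counts in all against 26420 for Pkm.

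Lactate dehydrogenase interconverts pyruvate and lactate. Ldha, the form that favors lactate (ENSMUSG00000063229), ran from 616 to 1564 CPM in high-fat diet livers (median 861) against 693 to 1366 CPM in control livers (median 822), and the groups overlapped almost fully. It was not called (log2 fold change -0.02, SE 0.13, adjusted p = 0.907). Its highest library was again library 3 of the high-fat diet, at 1564 CPM. Ldhb, the heart form (ENSMUSG00000030246), ran from 1.82 to 7.44 CPM (median 3.54) and from 1.30 to 3.16 CPM (median 2.69). It was not called either (log2 fold change 0.52, SE 0.20, adjusted p = 0.0428), and 7 of 12 high-fat diet libraries were above every control, 6 of them the Xist-low ones.

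Within each library, the RNA of an isozyme can be set against that of its liver counterpart as a ratio, which needs no scaling between libraries. In whole liver such a ratio cannot tell a change in the mix of cells from a change within cells. The 4 ratios described were tested on log2(count + 0.5) with two-sided permutation tests (100000 resamples, Benjamini-Hochberg adjustment over a family of 9 ratios, threshold 0.05). For the ratios, shares are given per exon length. Pkm made up a median of 12.4% of Pkm and Pklr together in high-fat diet livers (6.66% to 38.5%) against 3.13% in controls (1.49% to 8.80%). The ratio of Pkm to Pklr was 4.97-fold higher (log2 difference 2.31, SE 0.35, adjusted p = 0.00027), and 9 of 12 high-fat diet libraries lay above every control. Pklr was still the larger part in all 24 libraries.

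The ratio of Pfkp to Pfkl was 1.83-fold higher (log2 difference 0.87, SE 0.23, adjusted p = 0.0014), and 8 of 12 high-fat diet libraries lay above every control. Pfkp remained the smaller part of Pfkp and Pfkl together, a median of 5.73% (3.31% to 13.8%) against 3.73% (1.54% to 5.06%). The ratios of Pfkfb3 to Pfkfb1 (0.48, SE 0.33, adjusted p = 0.175) and Ldhb to Ldha (0.47, SE 0.25, adjusted p = 0.102) did not pass, so 2 of the 4 ratios passed. Without library 3 of the high-fat diet the ratio of Ldhb to Ldha also passed (0.60, adjusted p = 0.012).

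**Figure D2:**
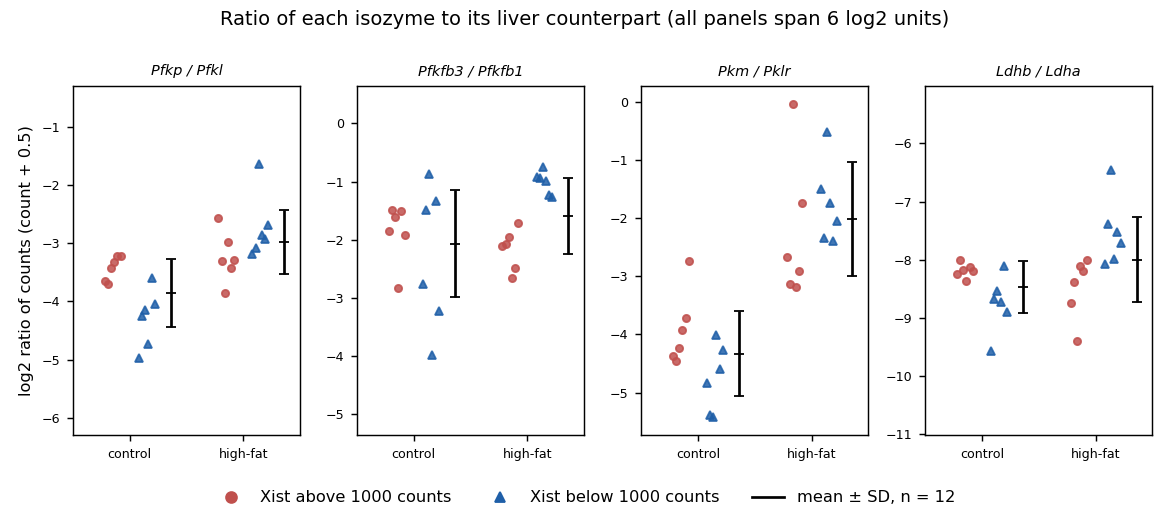
Log2 ratio of the counts of each isozyme to those of its liver counterpart in each library, by diet, with 0.5 added to each count. Every panel spans 6 log2 units, symbols mark the library sets and bars give the mean ± SD of 12 libraries. The Pkm to Pklr ratio differs most between the diets, by 2.31 log2 units.

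None of the 3 hepatocyte isozymes Pfkl, Pfkfb1 and Pklr was called by edgeR, DESeq2 or limma-voom. At an unadjusted p under 0.05, 1 was higher (Pfkl, log2 fold change 0.46, SE 0.14, adjusted p = 0.0116) and 1 lower (Pklr, -0.56, SE 0.22, adjusted p = 0.0394). Pfkfb1 stood at -0.32 on the log2 scale (adjusted p = 0.157). In the higher ratios above, the numerators Pkm and Pfkp were called and the denominators Pklr and Pfkl were not. Missing the thresholds does not show that a denominator was unchanged, and the part of each gene in the ratios was not tested.

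A further 16 glycolytic genes were listed, among them Pfkm, Pgam2, Eno2, Eno3 and Ldhd. Of these, 2 were higher, 1 was lower and 13 were not called, with a median log2 fold change of 0.14. This is near the share over all tested genes, of which 18.2% were called in either direction. The 2 higher genes were the hexokinase domain gene Hkdc1 (2.06, SE 0.53, adjusted p = 0.0034) and Pfkfb4, another maker of fructose 2,6-bisphosphate (1.97, SE 0.25, adjusted p = 2.1e-06), and the lower one was Pfkfb2 (-0.63, SE 0.15, adjusted p = 0.0021). Hkdc1 rested on low levels, 1.40 ± 1.66 CPM against 0.328 ± 0.363 (SD, n = 12), with library 9 of the high-fat diet at 6.30 CPM. Gapdh, the most abundant of the 16, stood at 0.29 on the log2 scale (SE 0.12, adjusted p = 0.0698).

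Of 7 glucose and lactate transporters, 2 were higher, where 13.2% of all tested genes were called higher and 4.99% lower. These 2 were the lactate exporter Slc16a3 (log2 fold change 2.03, SE 0.33, adjusted p = 4.1e-05), at 2.38 ± 1.80 CPM against 0.570 ± 0.343 (SD, n = 12), and the leukocyte transporter Slc2a6 (1.07, SE 0.31, adjusted p = 0.0079). None of the 7 was called lower by edgeR, DESeq2 or limma-voom, and 1 was lower at an unadjusted p under 0.05, the hepatocyte transporter Slc2a2 (-0.36, SE 0.11, adjusted p = 0.0089), which missed the fold threshold. The log2 fold change of Slc2a1 was 0.22 (adjusted p = 0.119), that of Slc2a3 1.19 (adjusted p = 0.0107), that of Slc16a1 -0.07 and that of Slc16a7 0.27.

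**Figure D3:**
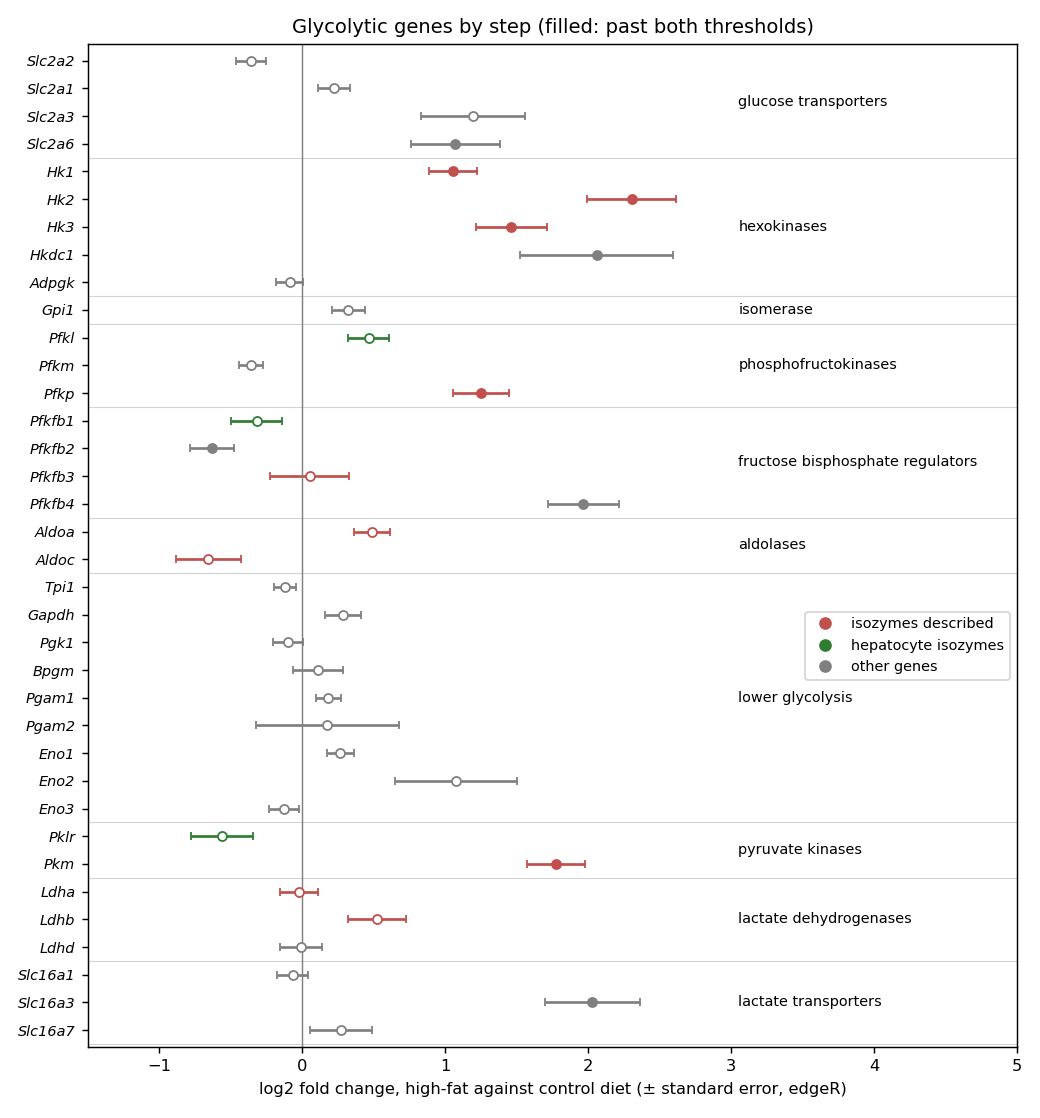
Log2 fold change ± SE (edgeR, 12 against 12 libraries) of glycolytic genes and their transporters, ordered by step; filled points passed both thresholds. Pfkp and Pkm lie to the right of Pfkl and Pklr, Hk1, Hk2 and Hk3 are filled, and the lower glycolytic genes from Tpi1 to Eno3 hold no filled point.

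Of 10 genes that decide the fate of pyruvate, 1 was higher and 1 lower, beside shares of 13.2% and 4.99% over all tested genes. Pdk3, an inhibitor of pyruvate dehydrogenase, was higher (log2 fold change 1.74, SE 0.30, adjusted p = 6.6e-05) and Mpc2, a subunit of the mitochondrial pyruvate carrier, was lower (-0.67, SE 0.20, adjusted p = 0.0085). Mpc2 stood at 480 CPM in control library 10, where the control mean was 220 CPM, and limma-voom called 0 of the 10 lower. None of 9 regulators of glycolytic genes was called by edgeR or DESeq2, 1 was called higher by limma-voom, and at an unadjusted p under 0.05 there was 1 higher and 1 lower. These were Myc (0.64, SE 0.25, adjusted p = 0.0415) and Hif1a (-0.39, SE 0.09, adjusted p = 0.0013, short of the fold threshold), which are named here after their values were seen. Of 4 fetal liver genes, H19 was higher (2.77, SE 0.52, adjusted p = 0.00016), and Afp (0.57, adjusted p = 0.206), Gpc3 (0.74, adjusted p = 0.0775) and Igf2 (-0.43, adjusted p = 0.171) were not called.

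The diet differences were not of 1 size in the 2 library sets. Among the Xist-high libraries 3 of the 10 genes were called higher, Hk2, Hk3 and Pkm, where 2.99% of tested genes were. None was called lower by edgeR there (background 0.905%), and none of the 10 was lower at an unadjusted p under 0.05. Among the Xist-low libraries 7 of the 10 were called higher (background 14.6%) and 1, Aldoc, was called lower (background 8.12%). The 7 were Hk1, Hk2, Hk3, Pfkp, Pkm, Aldoa and Ldhb. The test of the difference itself, the interaction of diet and set over all 24 libraries in edgeR at an adjusted p of at most 0.05, passed for 5 of the 10, all with a larger diet difference in the Xist-low set, where 6.18% of tested genes passed in that direction. None passed with a smaller difference, as 4.04% of tested genes did, so 5 of 10 passed in either direction against 10.2%.

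Hk2 was 9.22-fold higher on the high-fat diet among the Xist-low libraries and 2.36-fold higher among the Xist-high (interaction 1.95 on the log2 scale, SE 0.45, adjusted p = 0.0062). Hk3 was 5.64-fold and 1.78-fold higher (interaction 1.65, SE 0.30, adjusted p = 0.0010). In Hk3 the sets differed mostly on the control diet, where the median was 2.69 CPM in the Xist-low and 6.81 CPM in the Xist-high set. On the high-fat diet the medians were 13.9 and 13.3 CPM, close to each other beside ranges of 7.95 to 23.9 and 12.04 to 17.2 CPM.

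Pfkp was 3.63-fold and 1.62-fold higher (interaction 1.16, SE 0.32, adjusted p = 0.0200). Ldhb was 2.17-fold higher among the Xist-low libraries, where the diets did not overlap (3.48 to 7.44 against 1.30 to 3.16 CPM), and stood at -0.17 on the log2 scale among the Xist-high (adjusted p = 0.586) (interaction 1.28, SE 0.31, adjusted p = 0.0080). Hk1 was 2.93-fold and 1.52-fold higher (interaction 0.94, SE 0.29, adjusted p = 0.0379), and that interaction missed the threshold in 12 of the 24 fits that left out 1 library (adjusted p up to 0.0759). Pkm was 4.66-fold and 2.49-fold higher, and its interaction missed the threshold (0.89, SE 0.35, adjusted p = 0.112) but passed without library 3 of the high-fat diet (1.25, adjusted p = 0.0047) and without control library 11 (1.07, adjusted p = 0.0409).

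Other cell types moved with the sets too. On the high-fat diet the hepatocyte marker sum was 34040 to 44320 CPM in the Xist-low and 63210 to 86260 CPM in the Xist-high libraries, and the sum of 7 activated stellate cell markers was 384 to 646 CPM against 172 to 347 CPM. The sum of the 6 monocyte-derived macrophage markers also separated there, at 126 to 195 CPM in the Xist-low and 42.1 to 101 CPM in the Xist-high libraries. On the control diet, where Hk3 split by set, the leukocyte marker sum was 48.4 to 104 CPM in the Xist-low and 116 to 213 CPM in the Xist-high libraries. Resident macrophage markers (109 to 201 against 244 to 468 CPM) and endothelial markers (128 to 218 against 223 to 291 CPM) separated the same way on that diet. The part of these in the larger differences was not tested. The ratios followed the sets as well, with 4 of 4 passing among the Xist-low libraries in exact permutation tests of 6 against 6 (smallest possible p 0.00216). In that set the log2 fold change of Pfkfb3 itself was 0.21. Its counterpart Pfkfb1 had a median of 33.3 CPM on the high-fat diet against 46.2 CPM on the control diet there. The interaction of Pfkfb1 in edgeR was -0.95 (adjusted p = 0.0381). Among the Xist-high libraries none of the 4 passed, and 1 had an unadjusted exact p under 0.05, Pkm to Pklr (log2 difference 1.63, adjusted p = 0.0779 in the exact permutation test).

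**Figure D4:**
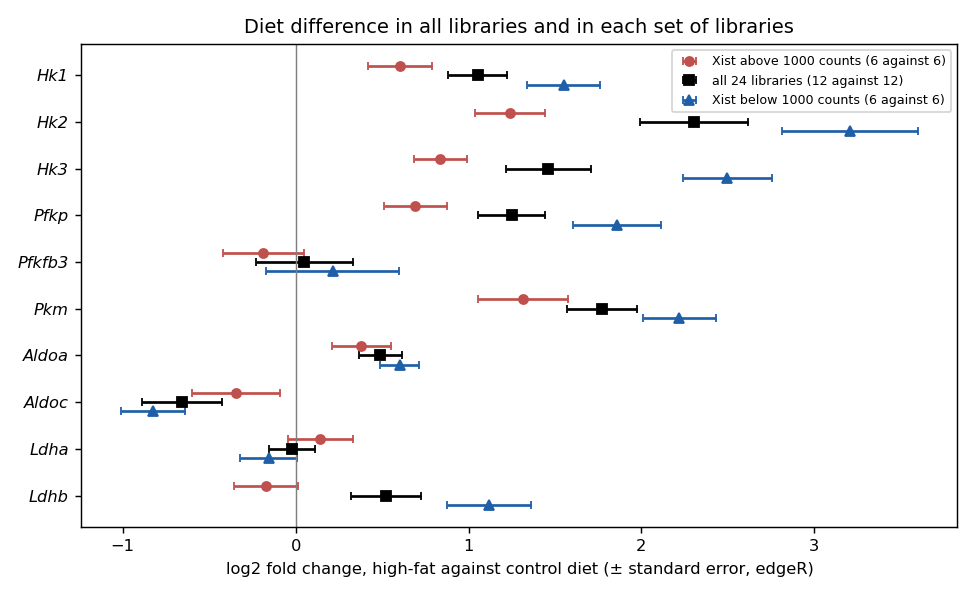
Log2 fold change ± SE (edgeR) of each gene between the diets in all 24 libraries (squares, 12 against 12), in the Xist-high set (circles, 6 against 6) and in the Xist-low set (triangles, 6 against 6). Hk2, Hk3 and Ldhb show the widest gaps between the sets, and Aldoa the narrowest.

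Markers of leukocytes, proliferating cells and activated stellate cells moved with the diet as well, and their part in the isozyme differences was not tested. All 6 monocyte-derived macrophage markers were higher, among them Gpnmb (log2 fold change 5.49, adjusted p = 1.8e-07) and Trem2 (3.47, adjusted p = 1.8e-07), and their sum ran from 42.1 to 195 CPM in high-fat diet livers against 4.07 to 24.1 CPM in controls. All 6 general leukocyte markers were higher (sum 202 to 444 against 48.4 to 213 CPM), with Ptprc at 1.13 (adjusted p = 8.2e-05) and Csf1r at 0.998 (adjusted p = 0.00068). All 5 proliferation markers were higher (8.87 to 60.8 against 2.43 to 7.84 CPM), as were 5 of 7 activated stellate cell markers (172 to 646 against 39.6 to 224 CPM). By edgeR, 4 of 5 cholangiocyte markers (5.28 to 158 against 4.78 to 14.4 CPM) were higher too. So were 4 of the 5 neutrophil markers tested (6.28 to 166 against 1.84 to 7.15 CPM). DESeq2 called 4 of each higher and limma-voom 2 of each. The next highest high-fat diet sums were 36.1 CPM for cholangiocytes, below library 9, and 14.4 CPM for neutrophils, below library 3. Of 6 hepatocyte markers, 5 were lower. Over all tested genes 13.2% were called higher and 4.99% lower.

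Other cells showed less, and their counts stand beside the 13.2% of all tested genes that were called higher. Of 5 resident macrophage markers 1 was higher, Cd5l, and the defining marker Clec4f stood at 0.20 on the log2 scale (adjusted p = 0.591). Of 6 endothelial markers 1 was higher (Stab2), and of 5 quiescent stellate cell markers 2 were. Of 4 red cell markers edgeR called 1 higher, Slc4a1. It held 886 counts in library 3 of the high-fat diet and 0 to 10 in the other libraries of that diet. DESeq2 and limma-voom called 0 red cell markers. No T cell or B cell marker was called by edgeR, DESeq2 or limma-voom. At an unadjusted p under 0.05, 2 T cell markers were higher and 1 was lower, with 0 B cell markers in either direction. The skeletal muscle sum, of interest because Aldoa and Pkm are muscle genes, was 0.399 to 1.44 CPM against 0.173 to 1.59 CPM, with the defining markers Ckm and Acta1 too low to be tested. Of 4 adipocyte markers 1 could be tested and it was not called.

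Whether a library with more macrophage marker RNA also held more of an isozyme was asked within each diet, over 12 libraries, as the correlation of log2(CPM + 1) of the gene with the mean of the 6 macrophage markers after each set was centered on its own mean. The 10 genes and 2 diets gave 20 relations and 40 values of r and rho, adjusted together. On the control diet Pfkp passed (r = 0.837, adjusted p = 0.0176, rho = 0.846, adjusted p = 0.0302, permutation tests), and r fell to 0.638 once the pair of libraries at the extremes of the marker level was dropped. Within the Xist-high and Xist-low controls r was 0.866 and 0.890. Pkm (r = 0.883, adjusted p = 0.043, rho = 0.741, adjusted p = 0.0833) and Hk3 (r = 0.772, adjusted p = 0.043, rho = 0.601, adjusted p = 0.24) passed by r alone, and their r of 0.405 and 0.341 after the same step shows that both rested on these.

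On the high-fat diet none of the 10 relations passed, with r from -0.535 for Ldha to 0.081 for Ldhb. At an unadjusted p under 0.05 there was 1 value, the rho of Hk3 (-0.601, adjusted p = 0.158, permutation test). The sign of several of these r rested on a pair of libraries. Without the 2 farthest from the median of the marker level, r turned positive for Aldoa (0.667), Hk1 (0.540), Pfkp (0.364), Aldoc (0.285) and Pkm (0.249), and stayed negative for Hk2 (-0.21), Hk3 (-0.23), Pfkfb3 (-0.29) and Ldha (-0.11). The sets also went opposite ways, with r of -0.70 and 0.686 for Hk1 and -0.69 and 0.628 for Pfkp in the Xist-high and Xist-low libraries. No direction is therefore read from the high-fat diet libraries.

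**Figure D5:**
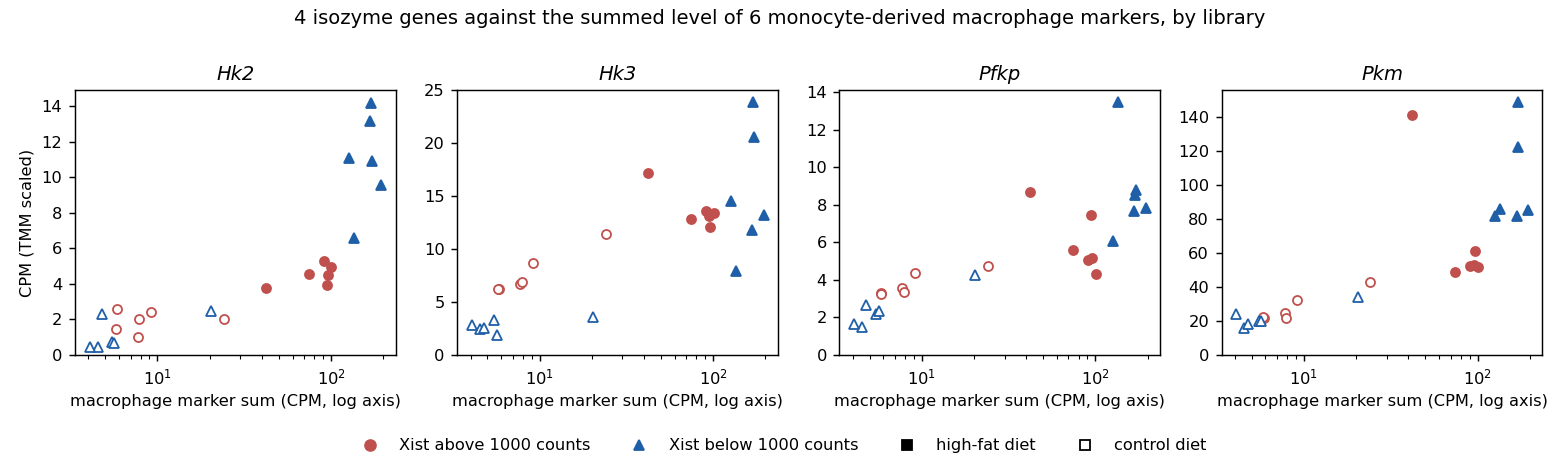
Level of Hk2, Hk3, Pfkp and Pkm (TMM-scaled CPM, linear axis) against the summed CPM of 6 monocyte-derived macrophage markers (log axis) in each library. Filled symbols are the high-fat diet, open symbols the control diet, circles Xist-high and triangles Xist-low libraries; the marker sums of the diets do not overlap (42.1 to 195 against 4.07 to 24.1 CPM).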

How the data were processed

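Whole-liver poly(A) RNA of 24 mice was sequenced. The table that the authors deposited holds raw counts for each Ensembl gene ID, not normalized. The processing notes name bcl2fastq, STAR 2.7.3a and mm10; the counting program, annotation and strand setting for mouse are not given in the sources used here. The methods describe a stranded kit. GENCODE M21 gave symbols and exon lengths for 51745 of 56205 IDs, and the 4460 others, with 0.0723% of counts, show that another annotation was used for counting. Aldoa has a second ID with 30 counts, which was left out.

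Counts were tested in edgeR 4.0.16 (R 4.3.3; TMM, quasi-likelihood fit, diet as the only term, 17913 genes). The SE is the absolute log2 fold change over the square root of F. Thresholds follow the supplemental methods. The labels do not say that replicates are separate mice beyond the design text. No libraries of a diet agreed within sampling noise (lowest chi-square per degree of freedom 10.1). Alternatives used DESeq2 1.42.0, limma 3.58.1, other scalings, filters, thresholds and sample sets. Scripts were tested on simulated counts.

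The genes, lists, sets and tests were chosen with earlier results of these data known. Named are the 10 genes, hepatocyte isozymes, transporters, up to 4 called genes and the most abundant gene of other lists, and 2 defining markers per cell type; further genes are named after their values were seen. Results of 2 further genes and the ratios to them are not reported here. Fits without pairs of libraries were added after seeing the data.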

Additional observations from a re-analysis of the deposited data

Results flagged for a closer look

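In 5 genes the diet difference itself differed between the Xist-low and Xist-high libraries in edgeR's interaction test. On the log2 scale the difference was larger in the Xist-low set by 1.95 for Hk2, 1.65 for Hk3, 1.28 for Ldhb, 1.16 for Pfkp and 0.94 for Hk1. The sets were formed from Xist counts, and any batch shared by replicates 1 to 6 or by 7 to 12 cannot be told apart from them. Hk2, Hk3, Ldhb and Pfkp stayed past the threshold in all 24 fits that left out 1 library (highest adjusted p 0.0416, Pfkp), and Hk1 in 12 of them. Without the high-fat diet libraries 3 and 9 all 5 passed, and Pkm did too (1.27, adjusted p = 0.0054). No rule for outlying values was applied to the groups of 12 libraries, and the libraries said to stand apart were named after their values were seen.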

How the results depend on the processing

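Hk3 and Pkm were called higher under every alternative tried, Hk2 under every one but the strictest filter (10 or more counts in all libraries), which left it untested, and Hk1 and Pfkp under all but 1, the fit of the Xist-high libraries alone (0.60, adjusted p = 0.0417, and 0.69, adjusted p = 0.0204), where 3 genes were called higher. Leaving out 1 library gave 5 to 6 genes higher and 0 lower. Aldoc made 1 gene lower with the replicate block, with the set as a covariate, in the Xist-low libraries alone and when any fold change with an adjusted p up to 0.05 was accepted. The sign turned for Pfkfb3 and Ldha, both near 0 over all libraries, and for Ldhb, which stood at 0.52 there. In the Xist-high libraries Pfkfb3 was -0.19 and Ldhb -0.17, and the interaction of Ldhb with the set passed, as given above. Ldha was 0.28 with library totals, 0.0319 with at least 10 counts in every library and 0.14 in the Xist-high libraries. Over the fits without 1 library Pfkfb3 ran from -0.0293 to 0.282 and Ldha from -0.128 to 0.0472. With library totals the median over all genes was 0.26 in place of -0.03, so Ldha there sat at that median, and the interaction of Ldha turned to 0.0743. Of the 4 ratios, 0 passed in the Xist-high and 4 in the Xist-low libraries, 2 to 3 without 1 library, and those of Pfkfb3 to Pfkfb1 and Ldhb to Ldha were -0.29 in the Xist-high set. The interactions called ran from 4 to 6 without 1 library. Of the 20 macrophage relations, 3 passed, against 5 with the leukocyte list, 5 with library totals and 1 with 0.1 CPM added. The causes of these changes were not tested.

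Same-numbered libraries of the 2 diets deviated together by -0.05 to 0.63, and 2 of 12 matched best with their own number. The deviations were taken from diet means and not from set means, so these values cannot decide whether the numbers pair the mice. The replicate block gave 5 genes higher and 1 lower, Aldoc at -0.61, and 2 of the 4 ratios passed. With 4 to 52 control counts for Hk2, low levels carry a large counting error.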
